A study of Mus musculus with 12 samples.

Results

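Rab GTPases are the small switch proteins that give each membrane compartment its identity. The members described here are all 53 genes, of 13886 in the deposited matrix, whose symbol is Rab followed by a number and an optional letter, a rule that reads no measured value, although the family was taken up with earlier results of these data known. They were read in 6 B-lineage states of 3 mice, and 29 of the 53 had enough transcripts to enter the tests; the other 24 are accounted for by their counts.

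The cells came from draining lymph nodes of mice primed with NP-KLH (the hapten NP on its carrier KLH) in Sigma Adjuvant System, taken at day 16 of the primary response and 5 days after tamoxifen gavage. Every cell was sorted as live, IgD-negative and eYFP+, so all states share the immunisation, the tamoxifen and the label; the sources used here do not name the Cre driver, the strain or the age. Cells of the 3 mice were marked with barcoded CD45 antibodies and pooled before droplet capture, with plasma cells (PC) and non-PC loaded in separate wells. The deposited annotation places 6000 cells in dark zone (DZ, 3040 cells), light zone (LZ, 2213), light-to-dark transition (LZtoDZ, 165), pre-memory (preMem, 396), pre-plasma (prePC, 49) and PC (137) states. There was no untreated group; DZ, LZ and LZtoDZ averaged within each mouse stand for the germinal centre (GC).

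A Rab protein binds membrane through prenyl groups added by a geranylgeranyl transferase, is switched on by an exchange factor, recruits effectors such as tethers and motors, and is switched off by a GTPase-activating protein before GDI extracts it. Rab1, Rab2 and Rab6 work between the endoplasmic reticulum (ER) and the Golgi, Rab3, Rab8, Rab10 and Rab27 in carriers bound for the surface, Rab5, Rab4, Rab11 and Rab35 in early and recycling endosomes, and Rab7 and Rab9 late in the endosomal route. Germinal centre B cells take up antigen into endosomes for presentation to T cells, and plasma cells carry large amounts of antibody through the ER and Golgi.

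Levels are unique molecular identifiers (UMIs) summed over the cells of a mouse and state, in counts per 1000000 (CPM) after TMM scaling, a correction for library composition. A UMI marks 1 captured 5′ end, so there is no length to correct for, and orders between genes are orders of UMI counts. Sums held between 83381 UMIs (10 prePC of mouse 3) and 10709429 UMIs (1197 DZ cells of mouse 3). The states matched their labels by markers: the 8 PC markers summed to 27494 to 32075 UMIs per 1000000 in PC against at most 6740 in any other state, the 8 memory markers to 1462 to 1593 in preMem against at most 98.0 in the GC states, and the 8 GC markers to 95.4 to 125 in PC against at least 725 in the GC states. The prePC state stood near preMem: its memory markers summed to 1170 to 1439, and 40 of its 49 cells lay in the pre-memory cluster. In prePC of mouse 1 the 5 myeloid markers in the matrix summed to 355 UMIs per 1000000, against 11.1 and 12.0 in mice 2 and 3; their part in the prePC values was not tested. Cell names fall into 2 barcode series that share 0 barcodes; the second holds 117 of the 137 PC and only 5 other cells. The sources used here do not tie a series to a well, and for most PC the state and the barcode series cannot be told apart. The 20 PC of the first barcode series had immunoglobulin transcripts at 11.4% of their UMIs and PC markers at 15134 UMIs per 1000000 outside immunoglobulin genes, against 39.4% and 53687 in the second.

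The promoter sequences of the 4 tested members with the largest changes between PC and GC among those with a promoter entry, and of 1 called member that holds a motif, are shown so that the letters before the starts of the members that changed most can be compared. RefSeq (GRCm38.p6) gave a promoter, 250 bases before to 50 after a start, for 44 of the 53 members; Rab30, Rab2a and Rab18 are among those with no entry. Printed 5′ to 3′ are the bases before the start that overlap no annotated exon, for Rab27a at chr9:73044560-73044809, Rab3a at chr8:70754453-70754678, Rab1 (Rab1a in RefSeq) at chr11:20201162-20201411, Rab35 at chr5:115631817-115631907 and Rab29 at chr1:131867027-131867223, all on the + strand. Capitals in Rab29 mark the core of the motif bound by the plasma cell factor XBP1, here in its reverse complement form ACGTGG.
Rab27a: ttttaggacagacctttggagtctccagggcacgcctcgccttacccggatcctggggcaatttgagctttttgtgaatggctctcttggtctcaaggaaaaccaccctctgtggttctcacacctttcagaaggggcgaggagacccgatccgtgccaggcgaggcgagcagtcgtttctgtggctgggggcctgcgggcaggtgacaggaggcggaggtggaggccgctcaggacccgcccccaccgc
Rab3a: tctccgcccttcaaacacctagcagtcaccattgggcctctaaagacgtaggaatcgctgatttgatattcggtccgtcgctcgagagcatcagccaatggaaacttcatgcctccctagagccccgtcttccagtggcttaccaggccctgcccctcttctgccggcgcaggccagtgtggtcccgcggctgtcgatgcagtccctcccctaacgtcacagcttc
Rab1: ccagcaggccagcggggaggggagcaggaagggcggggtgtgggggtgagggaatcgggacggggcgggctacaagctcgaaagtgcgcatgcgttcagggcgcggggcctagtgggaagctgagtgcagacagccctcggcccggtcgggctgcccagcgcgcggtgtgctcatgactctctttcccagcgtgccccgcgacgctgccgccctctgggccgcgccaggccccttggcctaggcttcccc
Rab35: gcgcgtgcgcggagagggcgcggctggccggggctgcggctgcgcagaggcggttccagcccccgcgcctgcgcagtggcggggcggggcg
Rab29: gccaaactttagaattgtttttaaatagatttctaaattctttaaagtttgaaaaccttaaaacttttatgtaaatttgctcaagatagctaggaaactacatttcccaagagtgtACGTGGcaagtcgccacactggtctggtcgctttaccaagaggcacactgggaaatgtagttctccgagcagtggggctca
The full unfolded protein response element TGACGTGG, searched on both strands, was in 222 of all 32851 promoters (0.676%) and in 0 of the members' 53 promoter entries. The ER stress element, CCAAT and CCACG separated by a spacer of N letters, was in 0.119% of all promoters and in 0 of the members'. The core CCACGT, which overlaps the first motif, was in 8.307% of all promoters and in 7 of the members' 53 promoter entries (13.2%), those of Rab5a, Rab20, Rab23, Rab24, Rab29, Rab33b and Rab40c. A match is only these letters, and no binding was measured.

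Of the 13 Rabs that work at the ER and Golgi, 8 were tested. In PC against GC 5 of them rose, namely Rab1, Rab2a, Rab6a, Rab18 and Rab43, Rab30 and Rab2b fell, and Rab1b did not pass the test. Of all 8473 genes tested, 25.9% rose and 27.2% fell. Among the 20 PC of the first barcode series, 0 of the ER and Golgi members rose, beside 7.3% of the genes tested there. Summed over the 13 genes, the PC level was 616, 627 and 597 CPM in mice 1 to 3, against 400, 409 and 411 CPM in GC. The 3 PC sums stood above every sum of the other states, of which the highest was 503 CPM in preMem of mouse 3.

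Rab1, which directs transport from ER to Golgi (chr11:20201432-20226856, + strand, GRCm38), had the most UMIs of all members in PC (372). Its PC level was 183, 178 and 197 CPM in the 3 mice, against 71.4, 71.5 and 75.5 CPM in GC. All 3 PC sums lay above all 15 other sums, and DZ, LZ, LZtoDZ and preMem lay close together at means of 66.9 to 80.8 CPM. The difference was 1.36 ± 0.08 log2 units (SE, n = 3 mice, edgeR quasi-likelihood test, adjusted p = 1.09e-09). Its close paralogue Rab1b, with the same role, was at 115 ± 15.8 CPM (SD) in PC and 107 ± 6.40 CPM in GC and did not pass the test.

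Rab2a, which acts at the Golgi (chr4:8535644-8607778, + strand), was at 147, 141 and 127 CPM in PC and at 62.2, 70.2 and 62.0 CPM in GC. No PC sum overlapped a sum of another state, and the difference was 1.10 ± 0.10 log2 units (SE, adjusted p = 1.25e-07). Its paralogue Rab2b went the other way, at 2.88, 5.16 and 5.51 CPM in PC (9 UMIs in all) and 11.7, 8.98 and 9.71 CPM in GC (−1.08 ± 0.41, adjusted p = 0.0341). The Rab2b call was lost on leaving out any 1 mouse (adjusted p = 0.0701 to 0.255) and in DESeq2 (adjusted p = 0.067). Exons of Rab2b overlap the antisense gene Tox4, and whether counting used the strand is not given in the sources used here, so its value is uncertain.

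Rab6a, which serves traffic within and out of the Golgi, was at 61.9, 51.6 and 38.6 CPM in PC and 25.9, 22.8 and 24.3 CPM in GC, a rise of 1.10 ± 0.21 log2 units (adjusted p = 4.10e-04). PC and GC did not overlap, but preMem of mouse 3, at 42.3 CPM, lay above PC of the same mouse. Rab6a exons overlap antisense Mrpl48. Rab18, found on ER and lipid droplets, was at 36.0, 59.3 and 73.5 CPM in PC against 33.6, 35.9 and 34.6 CPM in GC (0.67 ± 0.18, adjusted p = 0.00597); mouse 1 barely exceeded its GC level, and the call was lost without mouse 2 or without mouse 3. Rab43, a Golgi Rab, was at 17.5 ± 6.29 CPM in PC and 10.6 ± 1.43 in GC, and its mice overlapped (0.70 ± 0.24, adjusted p = 0.0253); the call was lost without mouse 1 or without mouse 3.

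Rab30, another Golgi Rab (chr7:92741603-92844535, + strand), had the largest fall among the tested members. It was at 28.8, 23.2 and 7.35 CPM in PC and at 75.0, 68.2 and 75.9 CPM in GC. PC lay below every other state in all 3 mice, and the difference was −1.72 ± 0.21 log2 units (adjusted p = 2.98e-06). So the ER and Golgi list did not move as one: Rab30, and less firmly Rab2b, changed against the other 5.

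Over all members, 11 of the 29 tested rose in PC and 6 fell, beside 25.9% and 27.2% of all genes tested. Split by route, 7 of 13 tested secretory members (ER and Golgi plus exocytic, 23 in the matrix) rose and 3 fell, with a median log2 difference of 0.67, while 4 of 14 tested endosomal members (22 in the matrix) rose and 3 fell, with a median of 0.08. The median over all genes tested was −0.09. These are counts and medians of lists, and the difference between the lists was not tested. Scaling matters here, since immunoglobulin transcripts made up 36.4% of PC UMIs against 0.818% to 1.46% in the GC states. With library totals alone in place of TMM, the median of all genes in PC against GC moved from −0.09 to −1.0, and 2 members rose while 18 fell, beside 11.7% and 70.2% of all genes tested. This setting shifts all genes of a sum by 1 factor, so by construction the 17 called members kept their place relative to that median, at −1.64 to 1.61 log2 units from it. With immunoglobulin genes left out before scaling, all 17 calls held.

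**Figure D1:**
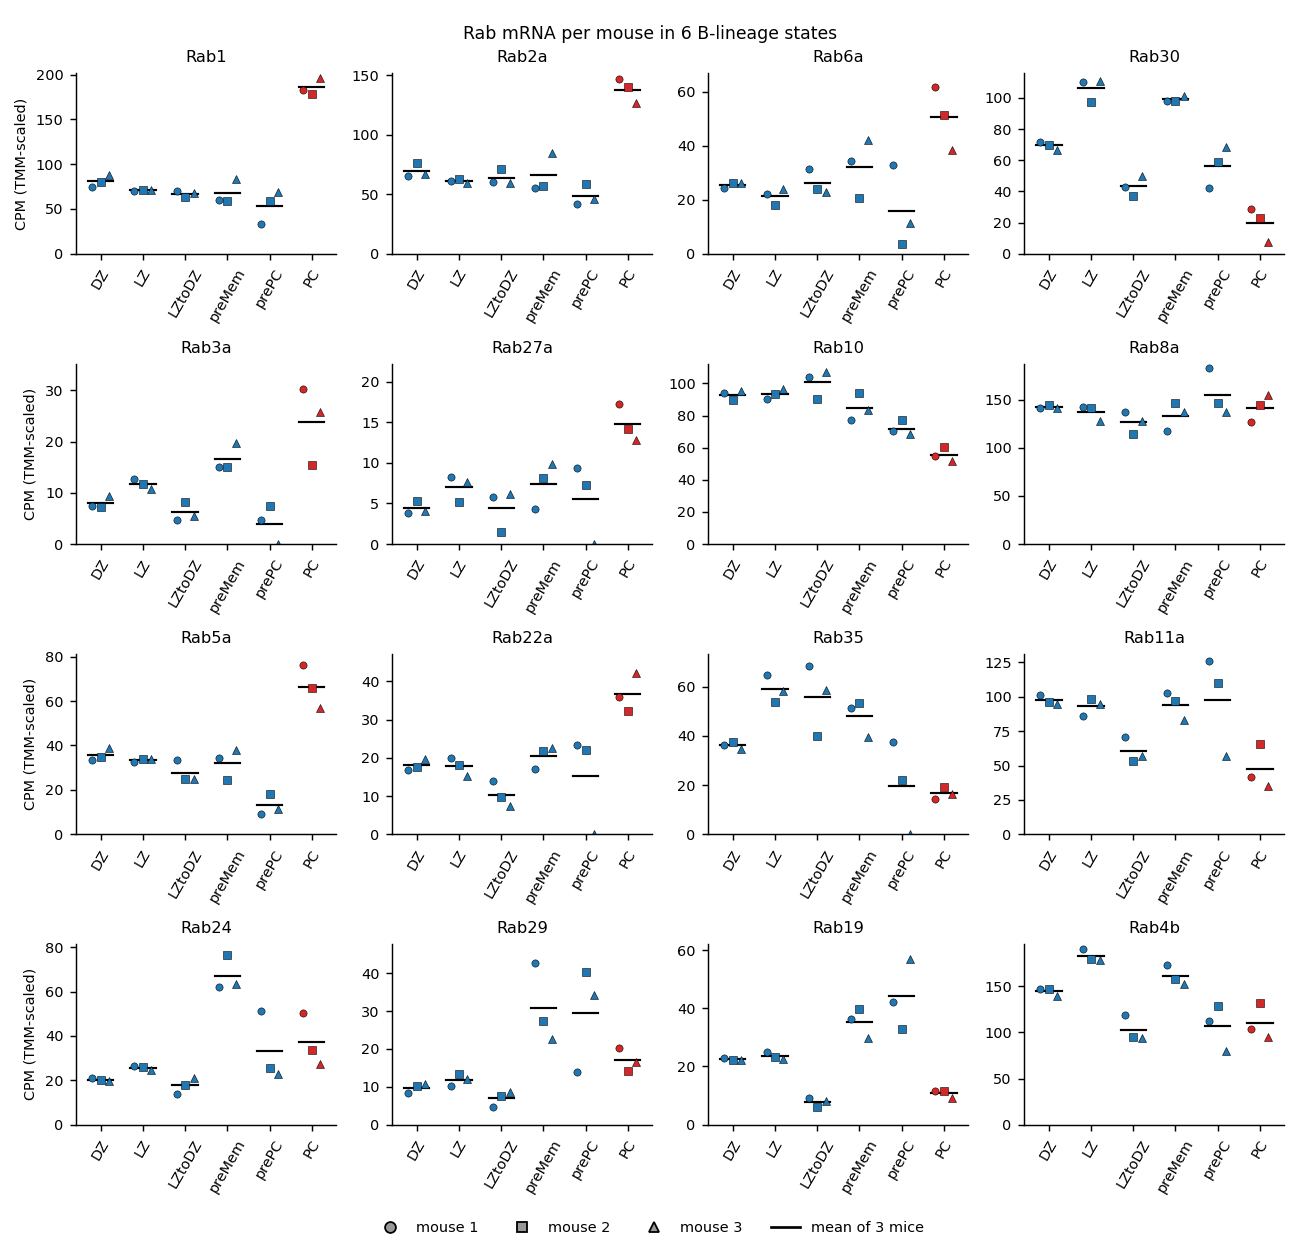
Level of 16 Rab members (y axis, TMM-scaled CPM, linear from 0) in the 6 states (x axis); each symbol is 1 mouse, the line the mean of 3 mice, and PC are red. Rab1 in PC sits at 178 to 197 CPM, above every other state, whereas Rab30 in PC sits at 7.35 to 28.8 CPM, below every other state.

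**Figure D2:**
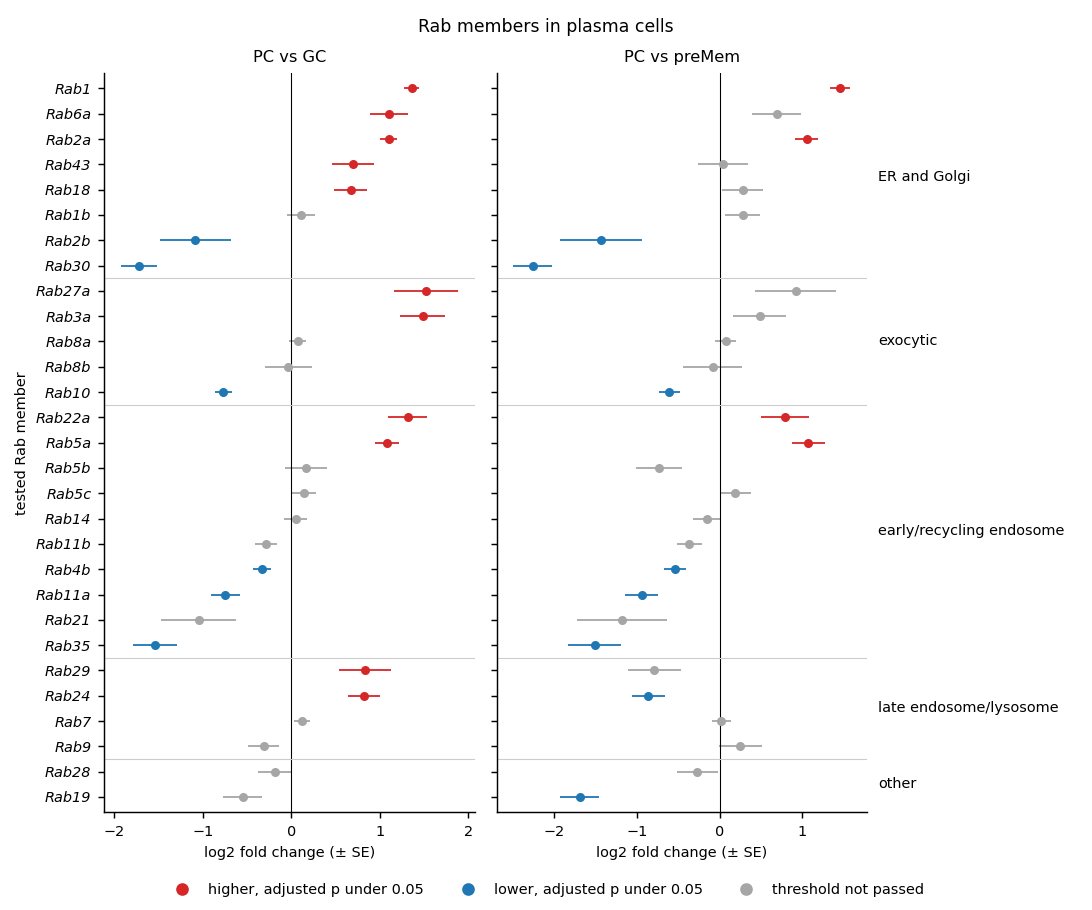
Log2 fold change with its SE (x axis) of the 29 tested members (y axis, grouped by list) in PC against GC (left) and against preMem (right); red and blue passed an adjusted p of 0.05, grey did not. Rab1, Rab2a, Rab5a and Rab22a are red in both panels, and Rab30, Rab35, Rab2b, Rab10, Rab11a and Rab4b blue in both.

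The exocytic members divided. Of 10, 5 were tested: Rab3a and Rab27a rose in PC and Rab10 fell, beside 25.9% and 27.2% of all genes tested. The most abundant, Rab8a, was at 142 ± 14.0 CPM in PC and 135 ± 4.27 CPM in GC without passing the test. Summed over the 10 genes, the level was 265 ± 12.1 CPM in PC and 267 ± 6.36 CPM in GC (SD, n = 3 mice). So the summed exocytic level differed by less than the spread between mice.

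Rab3a, known from regulated exocytosis at synapses and in gland cells, was at 30.2, 15.5 and 25.7 CPM in PC and 8.29, 9.03 and 8.55 CPM in GC. PC was higher in each mouse, with mouse 2 lowest (1.48 ± 0.25 log2 units, adjusted p = 1.24e-04, from 47 PC UMIs). Its exons overlap antisense Mpv17l2. Rab27a, which docks secretory granules, showed the largest rise among tested members and rests on 30 PC UMIs. It was at 17.3, 14.2 and 12.9 CPM in PC and 5.97, 3.98 and 5.98 CPM in GC (1.52 ± 0.36, adjusted p = 0.00213). Rab10, which carries cargo from the Golgi and from storage vesicles to the surface (chr12:3247428-3309969, - strand), was at 54.7, 60.6 and 51.4 CPM in PC and 96.1, 91.0 and 99.7 CPM in GC (−0.77 ± 0.10, adjusted p = 4.90e-06). All 3 PC sums of Rab10 were the lowest of their mouse; its exons overlap the antisense gene Rab10os.

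Rab3d, a Rab of zymogen and other secretory granules, had too few UMIs for the filter but stood out among the 24 untested members. It had 25 UMIs in PC and 38 in the far larger GC total, or 11.7 against 0.834 UMIs per 1000000 outside immunoglobulin genes, a ratio of 14.1 (95% exact binomial interval 8.15 to 23.96, counting error only). Rab39b, a neuronal Golgi Rab whose exons overlap antisense Gm15063, had 27 against 119 UMIs (ratio 4.86, 3.08 to 7.43). Rab4a, the early endosome paralogue of Rab4b, had 7 against 6 UMIs (ratio 24.99, 7.19 to 90.0). In a fit without the filter on low counts, Rab3d, Rab39b and Rab4a passed as higher (adjusted p = 1.92e-07, 2.01e-05 and 0.00499), and Rab39 as lower (adjusted p = 0.0431). These 4 were named after their values were seen. Of the 13886 genes in that fit, 2543 were higher and 2522 lower in PC against GC. Rab26, Rab37 and Rab39 had 0 UMIs in PC, where 3 counts over the group would be 1.41 UMIs per 1000000 outside immunoglobulin genes. Their GC levels stood 1.82-fold, 1.65-fold and 2.02-fold above that bound, which covers counting error only. Rab26 (adjusted p = 0.0797) and Rab37, also named after their values were seen, did not pass in the fit without the filter.

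Early and recycling endosome members went both ways. Of 14, 10 were tested: Rab5a and Rab22a rose in PC, and Rab35, Rab11a and Rab4b fell, beside 25.9% and 27.2% of all genes tested. The summed level of the 14 genes was 602, 647 and 549 CPM in PC against 682, 661 and 655 CPM in the averaged GC, with no overlap. In each mouse PC lay below DZ and LZ but above LZtoDZ, which was at 588, 517 and 530 CPM.

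Rab5a, which drives fusion of early endosomes (chr17:53479234-53507680, + strand), was at 76.3, 65.8 and 56.9 CPM in PC and 33.2, 31.2 and 32.5 CPM in GC. Every PC sum exceeded every other sum, and the rise was 1.08 ± 0.14 log2 units (adjusted p = 5.83e-06). The paralogues Rab5b (13.7 ± 5.65 against 13.6 ± 0.864 CPM) and Rab5c (77.7 ± 6.10 against 71.2 ± 2.38 CPM) did not pass the test. Rab5a exons overlap antisense Pp2d1. Rab22a, a relative of Rab5 on early endosomes, was at 36.0, 32.2 and 42.2 CPM in PC and 16.9, 15.2 and 14.1 CPM in GC (1.31 ± 0.22, adjusted p = 9.48e-05), again with PC above all other sums.

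Rab35, which returns receptors rapidly from endosomes to the surface (chr5:115631908-115647736, + strand), was at 14.4, 19.3 and 16.5 CPM in PC and 56.4, 43.7 and 50.6 CPM in GC (−1.53 ± 0.25, adjusted p = 7.65e-05). PC lay below every GC sum; prePC of mouse 3 held 0 Rab35 UMIs. Rab11a, the marker of recycling endosomes, was at 41.7, 65.8 and 34.9 CPM in PC and 86.0, 82.7 and 82.3 CPM in GC (−0.74 ± 0.16, adjusted p = 9.84e-04). Rab11b, its paralogue, was at 105 ± 10.3 against 130 ± 5.49 CPM and did not pass. Rab4b, of the fast recycling route and the most abundant endosomal member in LZ, was at 104, 132 and 95.5 CPM in PC and 152, 141 and 137 CPM in GC (−0.33 ± 0.10, adjusted p = 0.0135). The Rab4b call was lost without mouse 1 and without mouse 3, and its PC level was not below LZtoDZ in every mouse. Exons of Rab4b overlap Gm21983 and those of Rab11a overlap Gm47308 on the same strand.

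Late endosome and lysosome members were few. Rab7, which matures late endosomes and is the most abundant of the list, stood at 117 ± 9.95 CPM in PC and 107 ± 4.24 CPM in GC and did not pass. Rab24, linked to autophagy, was at 50.4, 33.5 and 27.6 CPM in PC and 20.5, 21.4 and 21.7 CPM in GC (0.82 ± 0.18, adjusted p = 0.00136); the call was lost without mouse 1, the highest. Rab29, which acts at the trans-Golgi and lysosomes, was at 16.96 ± 3.01 and 9.54 ± 1.54 CPM (0.83 ± 0.29, adjusted p = 0.0257), and the call was lost on leaving out any 1 mouse. Exons of Rab24 overlap antisense Prelid1.

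The share of secretory members in the summed secretory and endosomal CPM was 51.7%, 50.9% and 54.0% in PC. It was 43.9%, 44.0% and 44.6% in GC, 40.1%, 41.3% and 44.4% in preMem, and 40.2%, 42.0% and 50.5% in prePC. PC stood above every other sum; the prePC value of mouse 3 came from 10 cells. This share cancels the library scaling, since both sums have the same factor. Of the secretory members, Rab1 (186 against 72.8 CPM) and Rab2a (138 against 64.8 CPM) differed most in mean CPM between PC and GC. The exocytic sum was 265 against 267 CPM. The share without Rab1 and Rab2a was not computed.

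**Figure D3:**
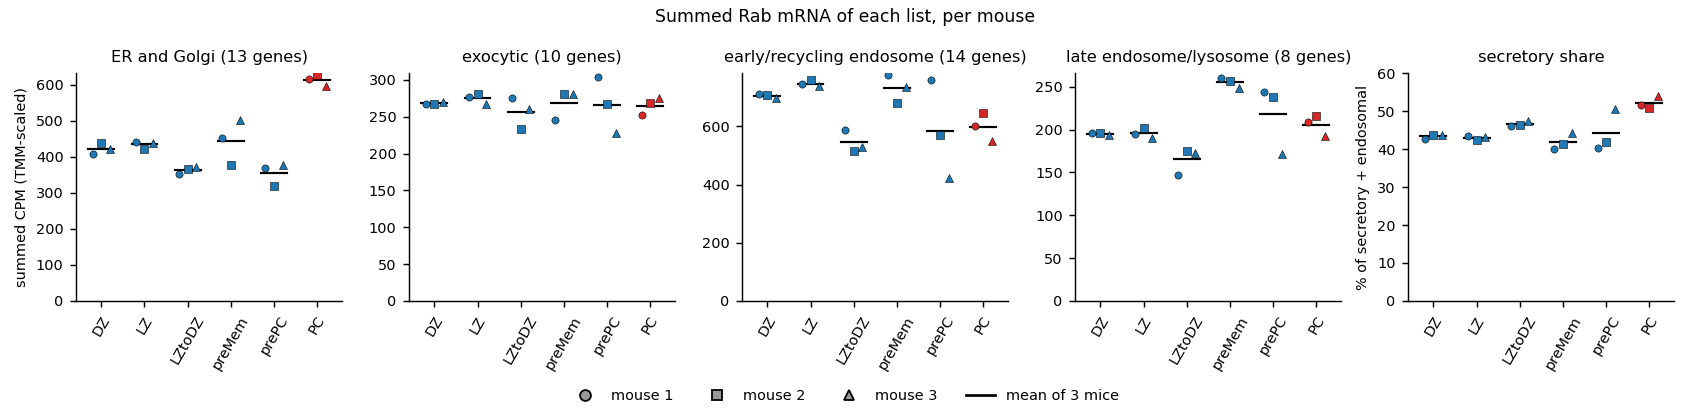
Summed level of each list (first 4 panels, y axis in TMM-scaled CPM) and the secretory share in percent (last panel) by state; symbols are mice and lines means of 3. ER and Golgi members in PC sum to 597 to 627 CPM against at most 503 CPM elsewhere, while exocytic sums in PC (252 to 275 CPM) lie within the range of the other states.

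Within the first barcode series alone, where PC numbered 3, 11 and 6 cells, 0 of 28 tested members rose in PC against GC, beside 7.3% of the 7401 genes tested there, and 3 fell, Rab30, Rab11a and Rab10, beside 7.72%. Rab1 differed there by 0.21 ± 0.21 log2 units (SE, adjusted p = 0.664). Pooled over mice, Rab1 had 99.1 UMIs per 1000000 outside immunoglobulin genes in first-series PC (31 UMIs, 95% Poisson interval 67.3 to 141), 188 in second-series PC (341 UMIs, 168 to 209) and 90.0 in GC. Rab5a had 35.2 (17.6 to 62.9), 68.3 (56.8 to 81.4) and 40.4. Rab35 had 41.5 (22.1 to 71.0), 11.6 (7.16 to 17.7) and 52.3. Rab30 had 16.0 (5.19 to 37.3) and 20.4 (14.4 to 28.1) against 93.2. So Rab1, Rab5a and Rab35 of first-series PC had intervals that held the GC value and excluded that of the second series, whereas Rab30 was low in PC of both. For Rab10, Rab11a, Rab4b and Rab2b the first-series interval held the second-series value and excluded that of GC. For Rab2a, Rab3a, Rab6a, Rab18, Rab22a, Rab24, Rab27a, Rab29 and Rab43 it held both values. Cells were pooled over mice, and for GC over states, so these intervals carry counting error only and no spread between mice. The secretory share was 47.7% of UMIs (42.9 to 52.4, exact binomial interval) in first-series PC, 52.7% (50.8 to 54.5) in second-series PC and 43.5% in GC. The lower PC marker and immunoglobulin levels of first-series PC moved with these values, and their part was not tested.

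**Figure D4:**
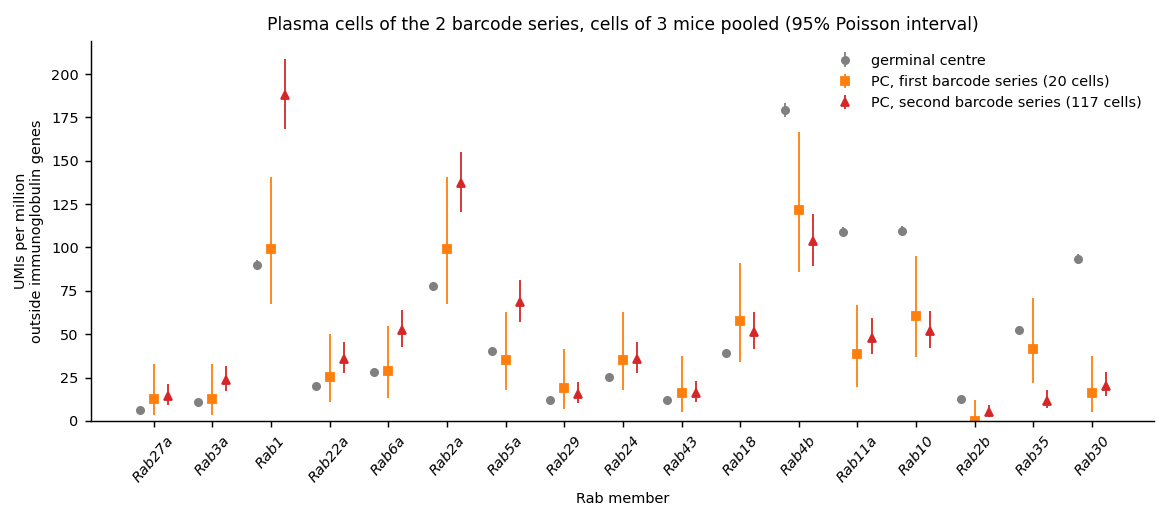
UMIs per 1000000 outside immunoglobulin genes (y axis, linear from 0) for the 17 members called in PC against GC (x axis), with cells of 3 mice pooled and 95% Poisson intervals; grey is GC, orange PC of the first barcode series, red PC of the second. For Rab1 the first-series value (99.1) lies by the GC value (90.0) and the second-series value at 188.

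Against preMem, PC had 4 members higher, beside 24.5% of the genes tested, and 8 lower, beside 25.8%. This comparison uses the same PC sums as the one before, so its values stand side by side with those and are no second test of them. Higher were Rab1 (1.46 ± 0.12), Rab5a (1.07 ± 0.20), Rab2a (1.05 ± 0.14) and Rab22a (0.79 ± 0.29, lost on leaving out any 1 mouse). Lower were Rab30 (−2.26 ± 0.24), Rab19 (−1.69 ± 0.23), Rab35 (−1.51 ± 0.32), Rab2b (−1.43 ± 0.49, lost on leaving out any 1 mouse), Rab11a (−0.94 ± 0.20), Rab24 (−0.86 ± 0.20, lost without mouse 2), Rab10 (−0.61 ± 0.13) and Rab4b (−0.54 ± 0.13, lost without mouse 1). With library totals alone, 1 member was higher and 17 lower, beside 10.2% and 54.1% of all genes tested. Within the first barcode series, 0 were higher, beside 10.2% of the genes tested there; Rab5a and Rab22a had estimates of −0.21 and −0.05.

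Pre-memory cells held more Rab24, Rab29 and Rab19 mRNA than GC cells. Of the 29 tested members 6 rose, beside 25.4% of the genes tested, and Rab9 alone fell, beside 21.5%. Rab24 was at 62.0, 76.5 and 63.4 CPM in preMem, against 20.5, 21.4 and 21.7 CPM in GC, above every sum of every other state (1.68 ± 0.15, adjusted p = 3.81e-07). Rab29 was at 42.7, 27.3 and 22.6 CPM against 7.77, 10.4 and 10.4 CPM (1.62 ± 0.25, adjusted p = 7.23e-05). Rab19, a Rab of less settled function, was at 36.3, 39.6 and 29.6 CPM against 19.0, 17.2 and 17.6 CPM (1.14 ± 0.15, adjusted p = 1.92e-05). In each of these 3 the mice of preMem and GC did not overlap.

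Rab5b rose to 24.3 ± 4.96 from 13.6 ± 0.864 CPM (0.90 ± 0.21, adjusted p = 0.00211). Rab3a was at 16.6 ± 2.74 against 8.62 ± 0.377 CPM (1.0 ± 0.29, adjusted p = 0.00902, lost without mouse 3), and Rab30 at 99.4 ± 1.83 against 73.0 ± 4.22 CPM (0.54 ± 0.14, adjusted p = 0.00376, lost without mouse 2). Rab9, which returns receptors from late endosomes to the Golgi, was at 27.8, 24.6 and 28.2 CPM against 39.1, 39.3 and 41.1 CPM (−0.56 ± 0.19, adjusted p = 0.0227, lost without mouse 2 or mouse 3). The summed late endosome and lysosome list was at 261, 257 and 248 CPM in preMem, above all sums of the other states. By the deposited phase call 93.4% of preMem cells were in G1, against 35.5% of DZ and 55.8% of LZ cells. With G1 cells alone, and GC taken as DZ and LZ, Rab24 (1.45 ± 0.14) and Rab29 (1.17 ± 0.25) passed while Rab19 (0.26), Rab5b (0.28), Rab3a (0.42) and Rab30 (−0.06) did not.

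The 49 prePC cells showed 2 members higher than GC, beside 10.5% of the genes tested, and 0 lower, beside 7.48%; 3 were lower at an unadjusted p under 0.05 in edgeR, and DESeq2 also called 0. Rab29 was at 14.0, 40.3 and 34.2 CPM in prePC (17 UMIs; 1.64 ± 0.43, adjusted p = 0.0127) and Rab19 at 42.1, 33.0 and 57.1 CPM (23 UMIs; 1.32 ± 0.25, adjusted p = 0.00269). The Rab29 call was lost without mouse 2 (adjusted p = 0.399) or without mouse 3 (adjusted p = 0.0658). Both were also higher in preMem, with the same GC sums as the reference. Neither passed with G1 cells alone, which left prePC of mice 1 and 2 (Rab29 1.57 ± 0.47, adjusted p = 0.0511; Rab19 0.25 ± 0.39, adjusted p = 0.806). Rab1, at 32.8, 58.6 and 68.5 CPM, and Rab5a, at 9.36, 18.3 and 11.4 CPM, did not pass. The spread between mice was widest here: the coefficient of variation over the 29 tested members had a median of 37.2% in prePC, against 4.63% in DZ, 5.34% in LZ, 15.9% in LZtoDZ, 16.5% in preMem and 17.2% in PC. Tested members had as few as 3 UMIs in prePC and at least 142 in DZ.

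Within the germinal centre, DZ cells had 0 members higher than LZ, beside 8.17% of the genes tested, and DESeq2 also called 0. At an unadjusted p under 0.05, 2 were higher in edgeR and 2 in DESeq2. They had 6 members lower, beside 11.3%. Rab35 was at 36.2, 37.6 and 34.8 CPM in DZ and 64.6, 53.6 and 58.3 CPM in LZ (−0.69 ± 0.10, adjusted p = 1.25e-04). Rab30 was at 72.1, 70.0 and 66.9 CPM in DZ and 110, 97.7 and 111 CPM in LZ (−0.61 ± 0.09, adjusted p = 2.00e-04). Both zones were separate in all 3 mice for both genes. Rab3a (−0.51), Rab2b (−0.49), Rab4b (−0.34) and Rab24 (−0.33) passed with adjusted p of 0.0263 to 0.0369, and leaving out 1 mouse left 2 to 3 members called lower.

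Cells moving from light to dark zone had less of 11 Rabs than LZ cells. The 11 lower members of 29 tested stood beside 24.3% of the genes tested, and 0 higher members beside 22.5% (0 also at an unadjusted p under 0.05 in edgeR, and 0 in DESeq2). By list, 7 of 14 tested endosomal and 3 of 13 tested secretory members fell, with medians of −0.45 and −0.12 against −0.08 over all genes. Rab19 was at 9.27, 6.02 and 8.03 CPM in LZtoDZ and 24.96, 23.2 and 22.7 CPM in LZ (−1.62 ± 0.17, adjusted p = 2.73e-06). Rab5b was at 9.27, 6.02 and 7.41 CPM against 18.5, 17.4 and 18.6 CPM (−1.30 ± 0.22, adjusted p = 1.50e-04). Rab30 was at 42.9, 36.9 and 50.0 CPM against 110, 97.7 and 111 CPM (−1.28 ± 0.14, adjusted p = 2.40e-06).

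Rab4b was at 119, 94.8 and 93.9 CPM against 191, 180 and 179 CPM (−0.85 ± 0.11, adjusted p = 2.10e-05). In these 4 genes no LZtoDZ sum reached an LZ sum. Also lower were Rab2b (−1.20), Rab3a (−0.87), Rab22a (−0.83), Rab11a (−0.66), Rab11b (−0.50), Rab24 (−0.47) and Rab9 (−0.43). Of these 7, all but Rab11a lost their call on leaving out at least 1 mouse. Without mouse 2, 6 of the family were called lower and 1 higher. Rab7, Rab14 and Rab8a stayed near their LZ levels, at 104 ± 6.32, 98.2 ± 3.80 and 126 ± 11.2 CPM, and did not pass. LZtoDZ cells were deeper (median 19103 UMIs per cell against 6258 in LZ) and 10.3% were in G1 against 55.8% in LZ; the part of phase in these values was not tested, since too few G1 cells remained.

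**Figure D5:**
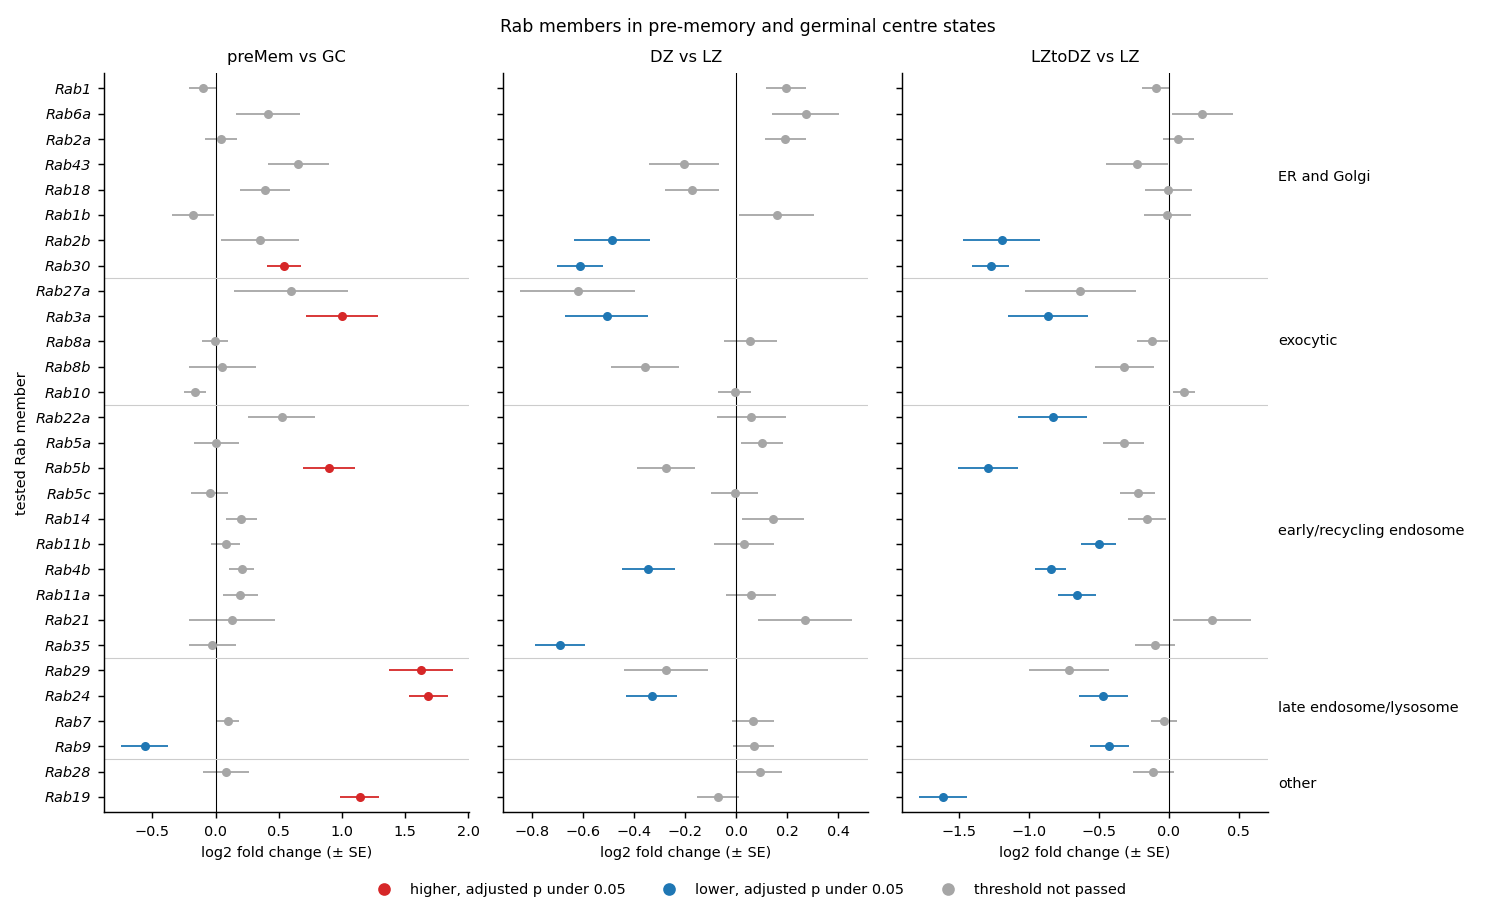
Log2 fold change with SE (x axis, scale differs by panel) of the 29 tested members in preMem against GC, DZ against LZ and LZtoDZ against LZ; colours as in the plot of PC changes. Red points in preMem are led by Rab24 (1.68) and Rab29 (1.62); the other panels hold no red point.

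The machinery that runs the Rab cycle was read from 4 lists, in the main fit alone. The part of cell phase and of barcode series in the values of these lists was not tested. In PC against GC, 4 of 7 tested genes of prenylation and recycling rose and 1 fell. Of 36 tested exchange factors 5 rose and 8 fell, of 16 tested GTPase-activating proteins 3 and 5, and of 30 tested effectors 8 and 9, beside 25.9% and 27.2% of all genes tested. Rabac1, a prenylated Rab acceptor of the Golgi, was at 357 ± 8.09 CPM in PC and 47.2 ± 3.54 CPM in GC (2.98 ± 0.09, adjusted p = 1.97e-13). Rilpl2, which binds phosphorylated Rab8 and Rab10, was at 235 ± 28.5 against 11.7 ± 1.79 CPM (4.58 ± 0.18, adjusted p = 2.51e-12). Tbc1d15, a GTPase-activating protein of Rab7, was at 100.2 ± 16.9 against 25.8 ± 1.86 CPM (1.93 ± 0.12). Uso1, the p115 tether that Rab1 recruits to ER-derived vesicles, was at 59.3 ± 10.4 against 15.8 ± 0.656 CPM (1.90 ± 0.17).

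The largest falls in PC were those of Optn (optineurin, a Rab8 effector), at 3.09 ± 1.60 against 42.2 ± 3.63 CPM (−3.79 ± 0.26), and Dennd4a, an exchange factor of Rab10, at 6.22 ± 2.60 against 31.4 ± 1.43 CPM (−2.38 ± 0.33). Exoc6, an exocyst subunit, and Gopc, a Golgi scaffold, fell by 1.79 and 1.71 log2 units. Against preMem, PC were higher in Gorasp2, the Golgi stacking protein that binds Rab2 (348 ± 16.8 against 78.3 ± 8.58 CPM, 2.14 ± 0.11), and in Rilpl2, Rabac1 and Tbc1d15 (2.37, 1.59 and 1.48). They were lower in Optn, Dennd4a, Tbc1d14 and Rin3 (−3.15, −2.86, −2.60 and −2.55).

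In preMem against GC, 14 of 36 tested exchange factors, 11 of 16 GTPase-activating proteins and 15 of 30 effectors rose, beside 25.4% of all genes tested, and 1, 0 and 2 fell, beside 21.5%. Rin3, an exchange factor of the Rab5 group, was at 28.6 ± 8.87 CPM in preMem and 33.7 ± 13.7 CPM in prePC, and at 0.366 ± 0.0723 CPM in GC (6.23 ± 0.45 and 6.33 ± 0.71). Rilpl2 (2.22), Tbc1d5, a GTPase-activating protein of Rab7 (1.60), and Rabac1 (1.39) followed in preMem, and Rilpl2 (4.58), Rabac1 (1.01) and Tbc1d10c (0.92) in prePC. Lower in preMem were Rabggtb, a subunit of the Rab geranylgeranyl transferase (−1.09), Optn (−0.63), the TRAPP subunit Trappc1 (−0.36) and Gorasp2 (−0.30). Optn alone of these lists was named as lower in prePC (−1.14).

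In LZtoDZ against LZ, 13 of 36 tested exchange factors, 7 of 16 GTPase-activating proteins and 14 of 30 effectors fell, beside 24.3% of all genes tested, and 1, 0 and 1 rose, beside 22.5%. Rabgef1, the exchange factor of Rab5, was at 4.52 ± 2.95 against 24.98 ± 1.38 CPM (−2.38 ± 0.30, adjusted p = 1.25e-05). Dennd1c, of the family that activates Rab35, was at 13.1 ± 1.36 against 45.8 ± 3.14 CPM (−1.78 ± 0.18), and Dennd5b and Dennd3 fell by 1.38 and 1.27 log2 units. Rabggtb rose, at 101 ± 7.10 against 52.6 ± 2.45 CPM (0.94 ± 0.09), as did Trappc13 (0.50) and Gorasp2 (0.33). In DZ against LZ, 7 of 36 exchange factors fell, beside 11.3% of all genes tested, and 1 rose, beside 8.17%. The falls were led by Rabgef1 (−0.90), Dennd5b (−0.54), Trappc9 (−0.52) and the GTPase-activating protein Tbc1d1 (−0.50); Gorasp2, Trappc6b and Optn rose by 0.29, 0.24 and 0.20.

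Of the 24 untested members, Rab23, Rab31, Rab12, Rab33b, Rab6b, Rab13, Rab20, Rab25, Rab32 and Rab40c had 1 to 20 UMIs in PC and 29 to 302 in GC. Rab7b, Rab33a, Rab34, Rab36, Rab3b, Rab40b, Rab42 and Rab44 had 0 UMIs in PC and 1 to 23 in GC. Of these, Rab33b (20 against 302 UMIs) passed as higher in the fit without a filter (0.99 ± 0.34, adjusted p = 0.0287) and the others did not. In that fit 2543 of 13886 genes were higher.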

How the data were processed

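The deposited matrix holds UMI counts per gene and cell, with the authors' table of states, mice, phases and clusters; per the submitters' processing notes, Cell Ranger and Seurat were used with mm10 (GRCm38), and other upstream steps, doublet removal included, are not stated there or in the labels. Cells with a state were used as annotated, and the counts of the cells of each mouse in each state were added up where there were at least 10 cells. The mouse is the replicate (n = 3). edgeR 4.0.16 (R 4.3.3) fitted all sums of the 6 states with TMM scaling, state and mouse terms, filterByExpr (8473 genes left) and the quasi-likelihood test, two-sided, with Benjamini-Hochberg adjustment over all genes tested and a threshold of 0.05. DESeq2 1.42.0 was an alternative. A test on simulated counts for PC against GC, over 7950 genes, recovered 48 of 50 genes raised by 1 log2 unit, with 12 false calls. The changed genes were drawn from those above 20 CPM, so recovery at lower levels, where some called members lie, was not tested. All other genes had the same mean in every state, so the composition of PC was not simulated. Sums of one mouse share an animal, so the mouse is a block; deviations of same-mouse sums had a median correlation of 0.0572 over 45 pairs, against −0.0319 over 90 pairs of different mice. Named were members past the threshold with at least 20 CPM in the higher group, the most abundant of each list and, where said, others; of regulators, up to 4 per direction with the largest change, 20 CPM and 1 direction in every mouse. The members and lists were chosen with earlier results of these data known. Coordinates are from GENCODE on GRCm38, promoters from RefSeq; exons of 6 members overlap another gene on the same strand and those of 15 an antisense gene. Neighbouring comparisons share sums. Intervals cover counting error only.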

Additional observations from a re-analysis of the deposited data

How the results depend on the processing

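Of 55 calls of a member in a comparison, 9 held in every alternative run that tested that member in that comparison. These were Rab30 and Rab35 in DZ against LZ, and Rab19, Rab30, Rab4b and Rab5b in LZtoDZ against LZ. The rest were Rab11a in PC against preMem, and Rab24 and Rab29 in preMem against GC. No call in PC against GC was among the 9. Over all alternatives 643 values kept their call, 133 lost it and 9 changed sign. DESeq2 kept 50 of 55 calls, RLE factors 54, no immunoglobulin genes 55, and no replicate block 53.

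Counts of members called, given as higher and lower, moved as follows. The cause was not tested in any setting, and some settings held fewer cells or genes. With library totals alone, PC against GC gave 2 and 18 (11 and 6 in the main fit), PC against preMem 1 and 17 (4 and 8), prePC against GC 3 lower (0) and preMem against GC 2 lower (1). Of the 8473 genes tested, 991 and 5952 were called in PC against GC and 863 and 4581 in PC against preMem. For prePC 1000 genes were lower, and for preMem 2205. Under the same setting Rab29 (−0.08), Rab24 (−0.10), Rab18 (−0.24) and Rab43 (−0.21) changed sign in PC against GC. In the first barcode series, PC against GC gave 0 and 3, PC against preMem 0 higher and preMem against GC 0 lower. Of the 7401 genes tested there, 540 and 571 were called in PC against GC. In PC against preMem 752 were higher, and in preMem against GC 1467 lower. Rab5a changed sign against GC (−0.09) and against preMem (−0.21), as did Rab22a against preMem (−0.05). With cells thinned to 2000 UMIs, which left 14 members tested, the counts were 1 and 0, 1 and 1, 0 higher for prePC, 2 and 0 for preMem, 3 lower for DZ and 2 lower for LZtoDZ, where Rab24 changed sign (0.32). Of the 3372 genes tested after thinning, 629 and 618 were called in PC against GC, and 611 and 699 in PC against preMem. Over the same genes, 318 were higher for prePC, 877 and 753 called for preMem, 365 lower for DZ and 651 lower for LZtoDZ.

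With G1 cells, PC against preMem gave 5 lower and DZ against LZ 1 higher. With GC as DZ and LZ, an alternative chosen after seeing the data, PC gave 7 higher, prePC 0 and 3, and preMem 2 higher, with Rab30 at −0.06. Of the 7645 genes tested with G1 cells, 1796 were lower in PC against preMem and 341 higher in DZ against LZ. With GC as DZ and LZ, 1850 were higher for PC, 560 and 269 called for prePC, and 1117 higher for preMem. A minimum of 20 cells left only mouse 2 for prePC, which is assumed to vary like the other groups; Rab19 was there at 1.02 log2 units. For prePC, no filter gave 1 lower, beside 788 of 13886 genes tested. No replicate block gave 1 lower for prePC, beside 714 of 8473 genes tested. Leaving out immunoglobulin genes gave 2 higher for DZ, beside 1095 of the 7637 genes tested. Leaving out cells with RNA of other types again left prePC of mouse 2 alone, with Rab29 at 2.07 and Rab19 at 1.65 log2 units. This setting gave 0 lower for preMem, beside 1743 of 9035 genes tested, and 1 and 2 for DZ, beside 792 and 745. The list of other types held Cd2. Without Cd2, a choice made after seeing the data, 53 calls held and 2 were lost.

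Leaving out 1 mouse gave 1 to 2 higher and 0 to 1 lower for prePC, 0 to 1 lower for preMem, 2 to 3 lower for DZ, and 0 to 1 higher and 6 to 9 lower for LZtoDZ, against 2 and 0, 1, 6, and 0 and 11. In PC against GC it gave 8 higher and 4 to 5 lower, against 11 and 6. Of all genes, 1775 to 2013 were higher there and 1756 to 1901 lower, against 2192 and 2305. In PC against preMem it gave 3 to 4 higher and 6 to 8 lower, against 4 and 8. Of all genes, 1693 to 1768 were higher there and 1676 to 1730 lower, against 2075 and 2184. Over all genes, these runs gave 551 to 727 higher and 367 to 388 lower for prePC, against 887 and 634. They gave 1337 to 1542 lower for preMem and 450 to 652 lower for DZ, against 1820 and 954. For LZtoDZ they gave 1508 to 1703 higher and 1272 to 1698 lower, against 1909 and 2060. G1 cells alone could not be run with LZtoDZ. With 49 prePC cells, tested members had as few as 3 UMIs in that state.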
